A study of Oryza sativa with 5 samples.

Results

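The comparison described here set the root transcripts of rice plants labelled nac6 against those of nontransgenic plants (NT) of the same cultivar, Hwayoung. It takes in the transcripts whose deposited values averaged at least 10 normalized counts over the pair, 30767 transcripts of 25108 loci, out of 39409 in the table and 40925 with a read in any of the 5 libraries of the series. Both groups were Oryza sativa roots at an age of 2 weeks. The seedlings had been started on MS medium and moved to soil in a greenhouse, with no stress applied. The nac6 plants are labelled as knockout mutants, and the study describes them as a null line of Hwayoung with a T-DNA insertion in OsNAC6. That is a single line, the position of the insertion is not given in the sources used here, and neither is the number of plants in a library. Each group had 1 library, so no difference below has a replicate check. Errors (±) are standard errors from the counting of reads only, and cannot tell the genotype from any other difference between the libraries. Whether roots differed in the number of cells of a type or in the RNA of each cell cannot be told apart in whole roots.

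NAC factors are plant-specific transcription factors, and OsNAC6 is a member that stress treatments and abscisic acid induce in rice. The study followed it into roots and into the synthesis of nicotianamine, a metal chelator that grasses also convert into the mugineic acids that carry iron into the root. Several families that recur below belong to the defence repertoire of plants. WRKY factors bind the promoters of defence genes, pathogenesis-related (PR) proteins are secreted when tissue is attacked or wounded, and NB-ARC proteins are receptors that sense pathogens inside the cell.

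The columns of the table carry no sample names and were assigned to the 2 groups by the numbers in the table's name, which match the numbered sample descriptions. A swap of the columns would turn every direction below. OsNAC6 itself is the first value to give, since it checks the label. Its transcript Os01t0884300-01 had 7600 reads in NT (Hwayoung) and 8215 in nac6, a log2 ratio of 0.31 ± 0.03. The reads go against a loss of the transcript, but cannot show whether it was intact. The study reports OsNAS1 and OsNAS2 lower in nac6, with target genes also verified by qRT-PCR. The assigned columns have the same direction for both, at log2 ratios of -2.71 and -3.06. The study also measured OsNAC6 itself by qRT-PCR in roots of the same age. It attributes the opposite root phenotypes of nac6 and of plants overexpressing OsNAC6 to their OsNAC6 level. The study further reports that a genomic OsNAC6 fragment rescued the tiller phenotype of nac6. Those measurements were made on other material, and the reads of this library do not show a lower level. For this library the knockout label could not be checked further. The library is therefore called by its label throughout, and no direction below can be credited to a loss of OsNAC6. The labelled tissue held up on the markers given here, which leave out RCc3, a root marker also chosen for this check. The root silicon transporters Lsi1 and Lsi2 had 15198 and 23873 reads in NT (Hwayoung) and 13429 and 24540 in nac6. Of 55 photosynthesis transcripts, 21 passed the minimum, and none of these exceeded 160 reads in NT (Hwayoung) or 217 in nac6.

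Most transcripts differed little between the libraries, and the larger differences lay more often on the side of nac6. The log2 ratio of normalized counts, with 1 added to each, had a median of -0.01 over all tested transcripts. A 2-fold difference, with no test behind it, was used as the call. By that rule 1938 transcripts (6.3%) were higher in nac6 and 1123 (3.65%) were lower. Transcripts with at most 3 reads in one of the libraries are described apart, at the end. Among the 30552 that remained, here called graded because both libraries held more than 3 reads, 1753 (5.74%) were higher and 1093 (3.58%) were lower. The plot of both libraries shows the graded transcripts as a band around equality with 2 tails, and the near-0 transcripts on its margins.

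**Figure D1:**
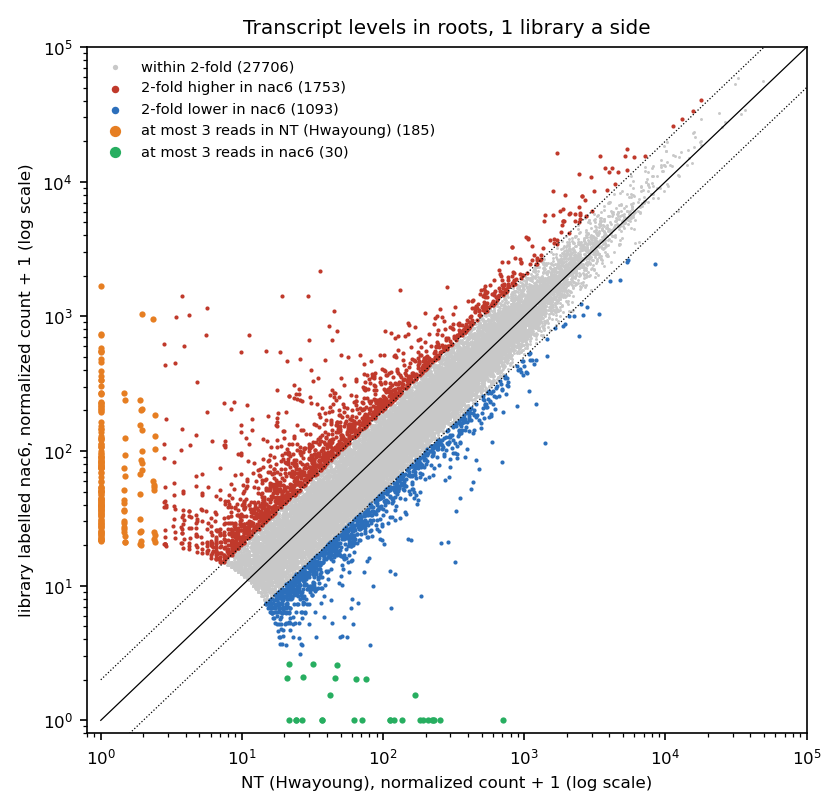
Normalized count plus 1 of each tested transcript in NT (Hwayoung) (x axis, log scale) and in the library labelled nac6 (y axis, log scale), with equality as a solid line and 2-fold differences as dotted lines. The 1753 graded transcripts above the upper line outnumber the 1093 below the lower one, and 185 transcripts at the left margin had at most 3 reads in NT (Hwayoung) against 30 at the lower margin with at most 3 reads in nac6.

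The split between the directions depended on the scaling. The authors' size factors gave a read more weight in nac6: 1 read of the first count column added 0.518 to a value there and 0.453 in NT (Hwayoung). Scaling to library totals instead moved the median of all transcripts by -0.15, and the higher share of the calls went from 63.3% to 46.3%. Ratios below are therefore best read relative to that shift. A family's direction that the shift overturned is marked in the sentence that gives it.

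Depth decided how far a single ratio could be trusted. The libraries held 23573270 reads for NT (Hwayoung) and 22909719 for nac6. Among transcripts with a mean from 10 to 50 normalized counts, the typical standard error was 0.40, and 8.26% were higher and 7.61% lower. Above a mean of 1000 the error was 0.05, with 5.49% higher and 0.665% lower. On the authors' scale the excess of higher transcripts was largest above 1000. The median ratio there was 0.15, against -0.05 from 10 to 50. Calls by level were not recounted with library totals, so this excess may depend on the scaling. Of the 1753 graded transcripts called higher, 1716 had a 95% counting interval that left out equality, and 678 had one wholly past 2-fold. Of the 1093 lower ones these numbers were 1036 and 199. Differences of at least 8-fold were seen in 107 higher and 22 lower transcripts. Just inside the minimum, at a mean of 10 to 11, 12.5% of 377 transcripts were higher and 12.2% lower, and just outside it, at 9 to 10, 13.1% and 12.9% of 411.

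Several defence-related families had more higher than lower members, though NB-ARC proteins and phytoalexin synthesis, described further on, did not. Of 81 tested WRKY transcripts, 20 (24.7%) were 2-fold higher and 1 lower, with a median of 0.41 against -0.01 for all transcripts. With library totals as the scale, 12 were higher and 1 lower. Os02t0462800-01, annotated as WRKY42, went from 19 reads to 180, a log2 ratio of 3.29 ± 0.46. Os08t0235800-00, similar to WRKY25, had 321 and 1682 reads (2.58 ± 0.12). Os01t0821600-01, a WRKY48-like factor, had 156 and 699 reads (2.35 ± 0.17). The member with the most reads was Os05t0343400-01, WRKY53, at 4492 and 7042 reads, a ratio of 0.84 ± 0.04 that stays under 2-fold. On the other side, the 1 lower member had a ratio of -3.60. Os07t0583700-01, WRKY78, had 2303 reads in NT (Hwayoung) and 1418 in nac6 (-0.51 ± 0.06). The higher WRKY transcripts belonged to 18 loci spread over the genome.

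Proteins with the DUF26 domain, cysteine-rich secreted or receptor-like proteins of plants, had the largest share of higher members of the families tried. The family was added after values were seen, so this rank is not independent of them. The same holds for the class III chitinase, thaumatin-like, PR-1, EL5, SAUR, kinesin and TolB families below. Of 16 DUF26 transcripts tested, 11 (68.8%) were higher and none lower, and the median ratio was 1.30. Loci close to each other on chromosomes 4 and 8 carried most of the reads that differed. On chromosome 4, Os04t0322100-01 had 3666 reads in NT (Hwayoung) and 30781 in nac6, a ratio of 3.26 ± 0.03. Os04t0316200-01 had 7407 and 29336 (2.18 ± 0.02). On chromosome 8, Os08t0136500-01 had 305 and 1335 reads (2.32 ± 0.12). Its neighbours Os08t0136700-01 and Os08t0136800-01, picked after their values were seen, had 6344 and 20335 reads and 3427 and 10703 reads. NT (Nipponbare), the control of another cultivar, held at most 104 reads of any of these 5 transcripts. The member with the most reads in the pair, Os04t0659300-01, did not share the pattern and had 78862 and 64355 reads (-0.10 ± 0.01).

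The list of chitinases, glucanases and PR proteins had 161 tested transcripts, of which 27 (16.8%) were higher and 3 (1.86%) lower, with a median of 0.22. It overlaps the thaumatin-like proteins described below, so their counts are not separate. The class III chitinases Os11t0701600-00 and Os05t0247800-01, also described below, are not in it. Os11t0591800-01, with the barwin domain found in the PR-4 proteins, had 612 reads in NT (Hwayoung) and 3091 in nac6, a ratio of 2.53 ± 0.08. Os01t0864500-01, a harpin-induced 1 protein, had 427 and 1989 reads (2.41 ± 0.10). Beta-1,3-glucanases cut the glucans of plant and fungal walls, and here their members parted. The most read of the list, Os01t0947000-01, had 51441 and 60894 reads (0.44 ± 0.01), while Os07t0539100-01, of the same glycoside hydrolase family 17, was lower with 11764 and 4951 reads (-1.05 ± 0.03).

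Class III chitinases, the family 18 enzymes that cut chitin, were higher as a group. Of 20 tested transcripts, 9 (45%) were higher and 1 was lower, and the median was 0.90. A run of 11 neighbouring loci on chromosome 11 held 6 of the higher members and the lower one. Os11t0702100-01, a class III chitinase homologue, had 3462 reads in NT (Hwayoung) and 15927 in nac6 (2.40 ± 0.04). Os11t0700900-02 and Os11t0701400-01, the latter picked after its values were seen, had 8996 and 23814 reads and 8618 and 22126 reads. Within the same run, Os11t0701600-00 had 2606 reads in NT (Hwayoung) and 415 in nac6, a ratio of -2.45 ± 0.10. Reads of such close copies may have been shared among them, so values of single loci are uncertain. On chromosome 5, Os05t0247800-01 was among the 10 transcripts with the most reads of the pair, at 38330 and 76579 (1.19 ± 0.01).

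Thaumatin-like proteins, the PR-5 class, had 22 tested transcripts, 6 higher and none lower, with a median of 0.39. Os12t0629700-01 had 5290 reads in NT (Hwayoung) and 21571 in nac6 (2.22 ± 0.03), and Os12t0569300-01 had 4151 and 14872 (2.03 ± 0.03). All 6 higher members lay on chromosomes 8, 11 or 12, and none of 12 elsewhere was higher. The furthest on the lower side was Os03t0663400-02 with 589 and 301 reads (-0.76 ± 0.14).

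PR-1 proteins, secreted markers of defence, had 21 tested transcripts, of which 8 (38.1%) were higher and none lower, with a median of 0.79. Os07t0127700-01 had 2297 reads in NT (Hwayoung) and 7050 in nac6 (1.81 ± 0.05). Os07t0127600-01 had 4035 and 11709 reads (1.73 ± 0.03). The rest of that run on chromosome 7 repeats nearly equal values in sets, such as 4096 and 9621 reads for Os07t0125000-02, so reads may be shared among near-identical copies and its 12 loci are not 12 separate measurements. Os07t0243800-00 had 376 and 1027 reads (1.64 ± 0.12) and 0 in NT (Nipponbare). The most read member, Os10t0191300-01, was nearly level at 37678 and 37336 reads (0.18 ± 0.01).

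**Figure D2:**
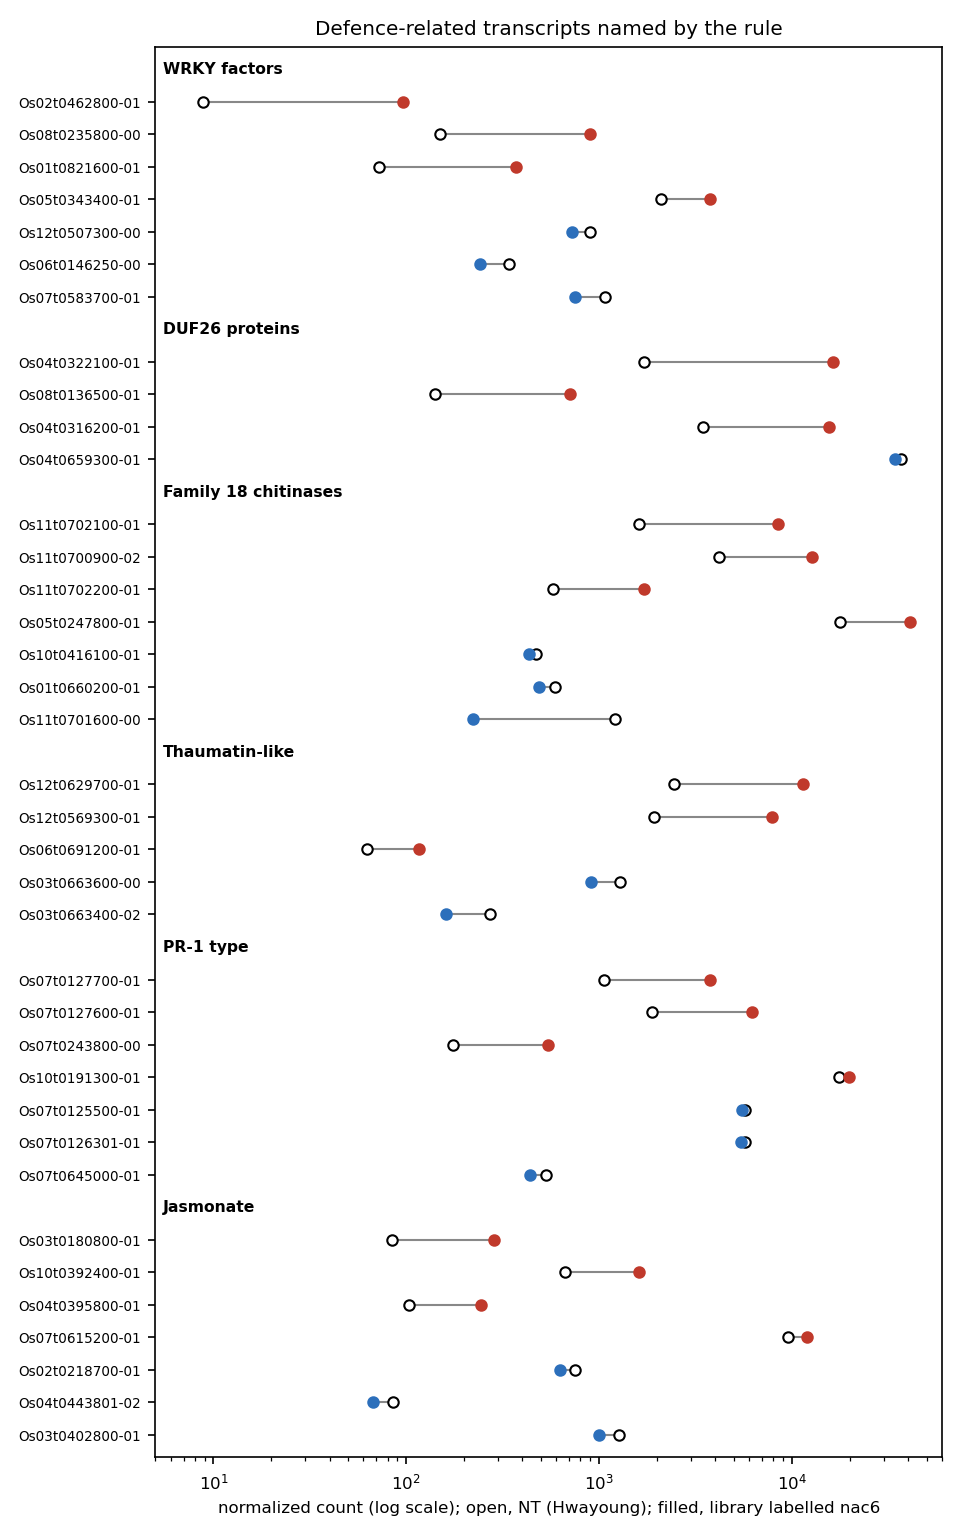
Normalized counts (x axis, log scale) in NT (Hwayoung) (open points) and in the library labelled nac6 (filled points, red where higher and blue where lower) for the transcripts that the naming rule picked in 6 defence-related families. Os04t0322100-01 of the DUF26 proteins, with a log2 ratio of 3.26, has the longest step upward among the transcripts with over 1000 normalized counts, and Os11t0701600-00 of the chitinases, at -2.45, the longest downward.

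Receptor-like kinases, which read signals at the cell surface, were spread in both directions. Of 176 tested, DUF26 members included, 24 (13.6%) were higher and 12 (6.82%) lower, and with library totals 21 and 18, where the median of 0.00 became -0.15. Os06t0170100-00, similar to the wall-associated kinase WAK80, went from 14 reads to 207 (3.87 ± 0.53). Os08t0203300-01, similar to the receptor-like kinase SHR5, went the other way with 748 and 83 reads (-2.95 ± 0.22). Os09t0471800-01, also similar to WAK80, had 163 and 54 reads (-1.37 ± 0.30).

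NB-ARC and disease resistance transcripts had more calls on both sides than the whole comparison, and their median lay below 0. Of 268 tested, 31 (11.6%) were higher and 35 (13.1%) lower, with a median of -0.29. Os11t0673600-00 had 4 reads in NT (Hwayoung) and 210 in nac6 (5.33 ± 0.97), and Os12t0204800-01 had 36 and 225 (2.77 ± 0.34). Against these, Os08t0293300-01 had 640 and 141 reads (-1.97 ± 0.18) and Os04t0205200-00 had 374 and 75 (-2.10 ± 0.24). The most read member, Os03t0333200-01, stood at 3309 and 3388 reads (0.23 ± 0.05).

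EL5 is an elicitor-responsive RING ubiquitin ligase of rice. The family had 10 tested transcripts, 6 of them higher and none lower. All 6 are loci of a run on chromosome 2, with 44 to 55 reads in NT (Hwayoung), 435 to 497 in nac6 and 5 to 9 in NT (Nipponbare), and ratios from 3.14 to 3.59. Their values are so close that the reads may come from fewer genes than 6. Os06t0535400-01, elsewhere in the genome, had 608 and 765 reads (0.53 ± 0.10).

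Calcium signalling, the relay from cell surface to defence and stress responses through calmodulins and EF-hand proteins, had 200 tested transcripts, 28 (14%) higher and 5 (2.5%) lower, and its median of 0.09 turned to -0.06 with library totals, where 17 were higher and 9 lower. Os01t0135700-01, an EF-hand protein, had 53 reads in NT (Hwayoung) and 447 in nac6 (3.22 ± 0.28). Os01t0134700-01, calmodulin-binding, had 488 and 1649 reads (1.94 ± 0.10). The most read EF-hand transcript, Os09t0483500-01, had 6452 and 11387 reads (1.02 ± 0.03) but 16 in NT (Nipponbare), and fell short of 2-fold with library totals.

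Hormone-related families differed from each other. Cytokinin transcripts and response regulators had none of 35 higher and 2 lower, with a median of -0.16. Jasmonate transcripts, which include the tify repressors that jasmonate itself induces, had 7 of 60 (11.7%) higher and none lower, with a median of 0.35. The ZIM motif transcript Os03t0180800-01 had 183 reads in NT (Hwayoung) and 534 in nac6 (1.73 ± 0.16), and Os10t0392400-01, a tify protein, had 1427 and 3031 (1.28 ± 0.06). The enzyme of jasmonate synthesis allene oxide synthase, Os02t0218700-01, had 1609 and 1176 reads (-0.25 ± 0.07). Abscisic acid and protein phosphatase 2C transcripts had 9 of 93 (9.68%) higher and none lower, and with library totals 4 higher and 3 lower. Os12t0198200-00, similar to a protein phosphatase 2C, a class that holds back abscisic acid signalling, had 105 and 348 reads (1.90 ± 0.21). Os01t0959100-01, an abscisic stress ripening protein, had 105 and 306 (1.72 ± 0.22).

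LEA proteins and dehydrins protect cells that lose water. Of 17 tested, 5 (29.4%) were higher and none lower, with a median of 0.46 that was 0.79 with a mean of at least 50. Os09t0482300-01, of the LEA-18 class, had 1127 reads in NT (Hwayoung) and 2803 in nac6 (1.51 ± 0.07), and Os09t0482550-01 had nearly equal values of 1110 and 2725, so the copies may share reads. The most read dehydrin, Os02t0669100-01, had 6333 and 9251 reads (0.74 ± 0.03).

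Auxin-related transcripts were near the background as a whole, with 10 of 147 (6.8%) higher and 6 (4.08%) lower, 7 and 13 under library totals, and 5 and 3 under a pseudocount of 10. Within them the SAUR proteins, small products of early auxin response, had 5 of 20 higher and 1 lower, and a median of 0.76, though a pseudocount of 10 left 2 higher. Os01t0768333-00 had 47 reads in NT (Hwayoung) and 176 in nac6 (2.05 ± 0.31), and Os09t0545300-01, described as a negative regulator of auxin synthesis and transport, had 288 and 116 (-1.11 ± 0.21). Os02t0141100-00, similar to auxin response factor 5, had 267 and 108 (-1.10 ± 0.22).

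Of the AP2/ERF factors, which act in ethylene and stress responses, 10 of 68 (14.7%) were higher and none lower, and the median of 0.15 was 0.05 with a mean of at least 50 and -0.01 with library totals, with 6 higher and 1 lower. Os12t0168100-01, similar to RAP2.6, had 66 reads in NT (Hwayoung) and 217 in nac6 (1.88 ± 0.27). Of the 68, 41 had a ratio above 0, and the most read member had the lowest. Os09t0434500-01, similar to ethylene response factor 2, had 26238 and 11469 reads, just short of a 2-fold difference.

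The other NAC factors had 4 of 59 (6.78%) higher and 6 (10.2%) lower, and their median of 0.09 turned to -0.07 with library totals. Os10t0571600-01 had 242 reads in NT (Hwayoung) and 726 in nac6 (1.77 ± 0.14). Os09t0509100-01 had 227 and 90 (-1.13 ± 0.24). The most read NAC transcript, Os05t0426200-02, had 15441 and 13437 reads and a ratio of 0.00 ± 0.02.

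Other factor families had calls near the background with a few large steps. MYB factors had 13 of 152 (8.55%) higher and 2 (1.32%) lower, or 8 and 5 with library totals. Os05t0442400-01, similar to MybSt1, had 115 reads in NT (Hwayoung), 315 in nac6 (1.63 ± 0.21) and 8 in NT (Nipponbare). Basic helix-loop-helix factors had 7 of 94 (7.45%) higher and 5 (5.32%) lower, or 5 and 5 with library totals. Os03t0741100-01 had 361 and 1561 reads (2.30 ± 0.11), and Os03t0338400-01 had 744 and 265 (-1.29 ± 0.14). Of the bZIP factors, many of which act in stress and abscisic acid responses, 4 of 45 (8.89%) were higher and none lower. Os06t0622700-01 had 1781 and 4000 reads (1.36 ± 0.05). Clock components, whose transcripts follow the hour of the day, had 1 of 18 higher and 1 lower. LHY, a morning factor of the clock (Os08t0157600-02), had 1989 and 1011 reads (-0.78 ± 0.07), and GIGANTEA (Os01t0182600-01), an evening component, 6087 and 4747 (-0.16 ± 0.04). The hour at which each group was harvested is not given in the sources used here.

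**Figure D3:**
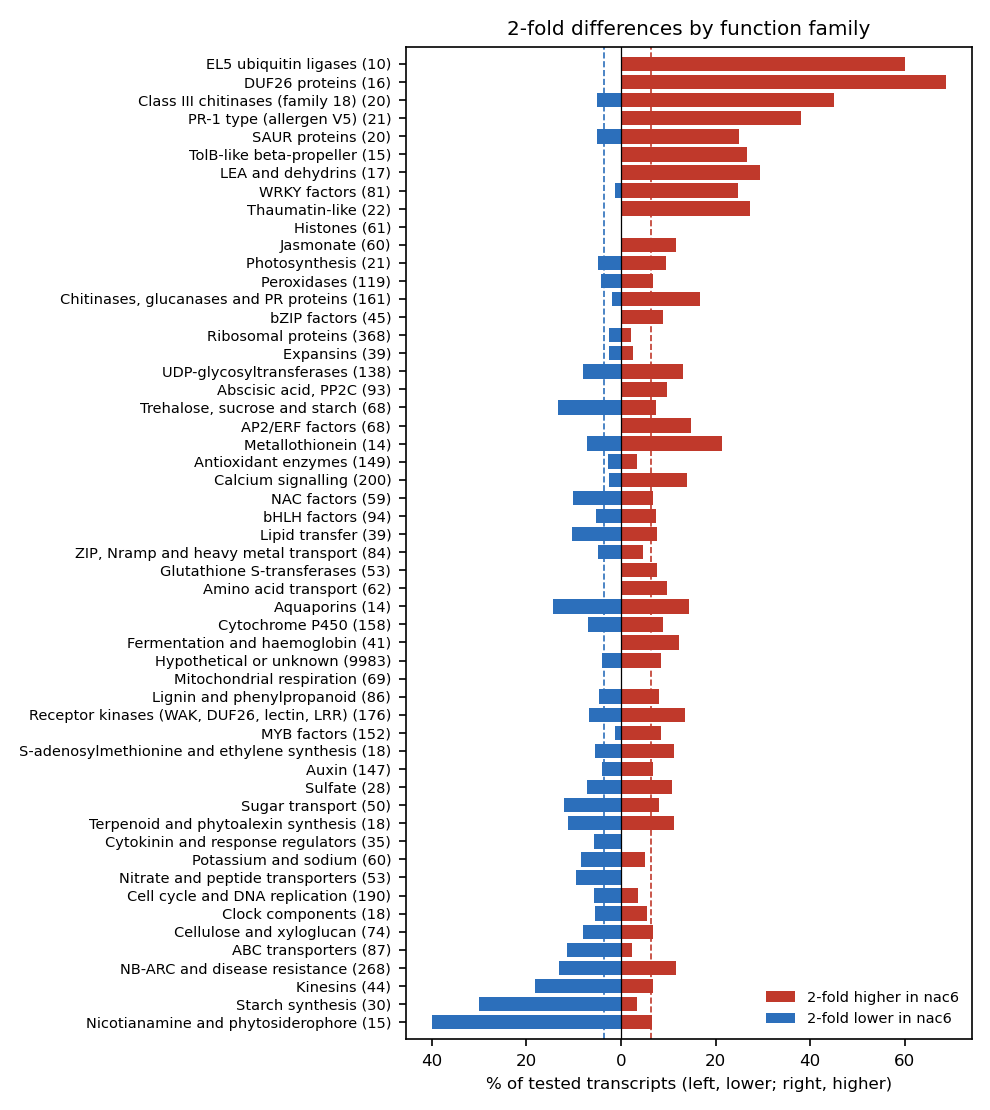
Share of tested transcripts that were 2-fold higher (red, to the right) and 2-fold lower (blue, to the left) in the library labelled nac6, for each function family of at least 10 tested transcripts described in the text, ordered by median log2 ratio, with the number tested in parentheses. Dashed lines mark the shares over all 30767 transcripts, 6.3% higher and 3.65% lower. DUF26 proteins reach 68.8% higher, and nicotianamine and phytosiderophore transcripts 40% lower.

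Of the families described, 18 of 55 had a median below 0, and 35 of 55 did with library totals. Nicotianamine and phytosiderophore transcripts had the largest share of lower members among those tried. Of 15 tested, 6 (40%) were lower and 1 higher, with a median of -0.94. The median was -0.30 with a mean of at least 50 and -0.62 with no filter, and a pseudocount of 10 left 4 lower. The nicotianamine synthases OsNAS2 (Os03t0307200-01) and OsNAS1 (Os03t0307300-01) were among the 15 lowest ratios that the naming rule drew from the whole comparison, at -3.06 ± 0.16 and -2.71 ± 0.17. They are neighbours on chromosome 3. Os02t0306401-00, similar to nicotianamine aminotransferase, the enzyme that takes nicotianamine towards mugineic acids, had 1268 reads in NT (Hwayoung) and 218 in nac6 (-2.33 ± 0.14). Other members did not share the step. OsNAS3 (Os07t0689600-01) had 448 and 317 reads (-0.30 ± 0.14), and Os04t0542800-01, similar to the metal-nicotianamine transporter YSL2, had 1537 and 1689 (0.33 ± 0.07). For OsNAS1, OsNAS2 and the aminotransferase, NT (Nipponbare) held more reads than either library of the pair, from 3121 to 7829.

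Metal transport as a whole was not shifted. Of 84 ZIP, Nramp and heavy metal transport transcripts, 4 (4.76%) were higher and 4 lower, and the median of 0.07 turned to -0.08 with library totals. On the lower side were OsNramp1 (Os07t0258400-01), a metal ion transporter of the root, with 363 and 116 reads (-1.43 ± 0.20), and Os02t0131800-01, similar to a root-specific metal transporter, with 481 and 175 (-1.26 ± 0.17). Os03t0667300-00, similar to a metal transport protein, had 1026 and 317 (-1.49 ± 0.12). The higher members were all described as heavy metal transport or detoxification domain proteins, such as Os02t0584800-01 with 158 and 532 reads (1.92 ± 0.17). Ferritin, the iron store of plastids, had 4 transcripts with ratios from -0.29 to -0.10, none called. Metallothioneins, small cysteine-rich metal binders, had 3 of 14 higher and 1 lower, all within a run of 6 loci on chromosome 12, and a median of 0.15 that was -0.01 with library totals. Os12t0571000-01 had 544 reads in NT (Hwayoung) and 2122 in nac6 (2.16 ± 0.09), and Os12t0568500-01 had 2304 and 988 (-1.02 ± 0.07).

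Starch synthesis, a family also added after values were seen, had the next largest share of lower members. Of 30 tested transcripts, 9 (30%) were lower and 1 higher, with a median of -0.64. It was -0.40 with a mean of at least 50 and -0.44 with no filter. Os05t0580000-01, similar to ADP-glucose pyrophosphorylase, which makes the sugar donor of starch, had 1531 reads in NT (Hwayoung) and 364 in nac6 (-1.87 ± 0.11). Os06t0160700-01, similar to starch synthase I, had 537 and 145 (-1.68 ± 0.18). Os07t0412100-01, similar to granule-bound starch synthase Ib, which makes amylose, had 1059 and 301 (-1.61 ± 0.12). The exception was Os02t0807100-01, similar to starch synthase V, with 65 and 134 reads (1.22 ± 0.29). A separate list of trehalose, sucrose and starch transcripts had 5 of 68 higher and 9 lower, or 2 and 10 with library totals. It overlaps the starch synthesis family but does not contain all of it, since Os05t0580000-01 is left out. Sucrose synthase 2, Os03t0401300-01, which splits sucrose in sink tissue, had 14464 and 17556 reads (0.47 ± 0.02), and Os03t0386500-01, similar to trehalose-6-phosphate phosphatase, had 1269 and 2747 (1.31 ± 0.06).

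Sugar transport had calls on both sides, 4 higher and 6 lower of 50, and a median of -0.11 that was 0.03 among members with a mean of at least 50. Os05t0426000-01, of the MtN3/saliva family of sugar exporters, went from 14 reads to 424 (4.92 ± 0.52), with 1 read in NT (Nipponbare). Os01t0700100-01 of that family had 742 and 302 reads (-1.09 ± 0.13). A hexose transporter, Os03t0218400-01, had 6729 and 15969 reads (1.44 ± 0.03), and monosaccharide transporter 2, Os03t0594400-01, had 400 and 144 (-1.26 ± 0.19).

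Fermentation enzymes, which keep glycolysis running when oxygen is short, differed in a few transcripts with very many reads. Of 41 tested in this family with the haemoglobins, 5 were higher and none lower. The family median of 0.04 became -0.12 with library totals, which left 2 higher, but the sum of its normalized counts had a log2 ratio of 0.68. Os11t0210500-01, similar to alcohol dehydrogenase, had 34010 reads in NT (Hwayoung) and 62698 in nac6 (1.08 ± 0.01), a call that library totals removed. Os06t0104900-01, similar to lactate dehydrogenase, had 12855 and 28501 (1.34 ± 0.02). NT (Nipponbare) had 2116 and 38 reads of them. Os01t0160100-01, similar to pyruvate decarboxylase, had 1121 and 734 (-0.42 ± 0.09). Beside them, cytosolic glyceraldehyde-3-phosphate dehydrogenase (Os02t0601300-01), an enzyme of glycolysis, had 70013 and 110422 reads (0.85 ± 0.01). Os03t0432100-01, similar to pyruvate, phosphate dikinase, had 67418 and 100510 (0.77 ± 0.01). Mitochondrial respiration, in contrast, had no call among 69 tested transcripts, and its median was 0.01, or -0.14 with library totals.

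Class III peroxidases, wall enzymes that build or loosen polymers, were close to the background with 8 of 119 (6.72%) higher and 5 (4.2%) lower, or 4 and 6 with library totals. A run of 5 loci on chromosome 7 accounted for 4 of the 5 lower transcripts. Os07t0677300-01 had 1893 reads in NT (Hwayoung) and 407 in nac6 (-2.02 ± 0.10), Os07t0677100-01 had 2337 and 522 (-1.96 ± 0.09), and Os07t0677200-01 had 8783 and 3450 (-1.15 ± 0.04). On the higher side lay Os06t0521400-00 with 214 and 751 reads (1.99 ± 0.15). The most read peroxidase, Os04t0688100-02, had 21152 and 25029 (0.44 ± 0.02).

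The phenylpropanoid route to lignin and flavonoids began level. Phenylalanine ammonia-lyase, Os02t0626100-01, its first enzyme, had 105462 reads in NT (Hwayoung) and 104907 in nac6 (0.19 ± 0.01). Over the family, 7 of 86 (8.14%) were higher and 4 (4.65%) lower, and the median of 0.00 became -0.15 with library totals. Os04t0103900-01, similar to chalcone synthase, the first step of the flavonoid branch, had 324 and 1393 reads (2.30 ± 0.12). The cinnamoyl CoA reductases Os02t0811600-00 and Os02t0811400-00, close in locus number, went apart with 333 and 844 reads (1.53 ± 0.12) and 1193 and 502 (-1.05 ± 0.10).

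Enzymes of secondary metabolism and detoxification had calls in both directions. UDP-glycosyltransferases, which attach sugars to small molecules, had 18 of 138 (13%) higher and 11 (7.97%) lower, and with library totals 11 and 12. The words that define this family also took in sucrose synthase 2 (Os03t0401300-01). Os04t0206600-01 had 64 reads in NT (Hwayoung) and 744 in nac6 (3.69 ± 0.25), and Os04t0320700-01 had 722 and 177 (-1.82 ± 0.16). Cytochrome P450 transcripts had 14 of 158 (8.86%) higher and 11 (6.96%) lower, with a median of 0.04 that turned to -0.11 with library totals, where 8 were higher and 13 lower. Os12t0443000-00 went from 19 to 259 reads (3.81 ± 0.45), while Os02t0323600-01 went from 259 to 21 (-3.30 ± 0.43). Os12t0150200-01, similar to CYP94C20, had 187 and 713 reads (2.12 ± 0.16).

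ABC transporters leaned to the lower side, with 10 of 87 (11.5%) lower and 2 (2.3%) higher and a median of -0.25. Os09t0332700-01, similar to a PDR-type exporter, had 763 reads in NT (Hwayoung) and 261 in nac6 (-1.34 ± 0.14), and Os04t0588700-01 had 1154 and 400 (-1.33 ± 0.11). Os08t0398300-01 was the exception, with 4523 and 11095 (1.49 ± 0.03). Nitrate and peptide transporters had 5 of 53 (9.43%) lower and none higher, and a median of -0.20, and a pseudocount of 10 left 2 lower. Os01t0871600-01, similar to the peptide transporter PTR2-B, had 426 and 114 reads (-1.68 ± 0.20), and Os03t0235900-01, similar to the low affinity nitrate transporter NRT1.2, had 670 and 288 (-1.02 ± 0.13). The nitrate transporter with the most reads, Os03t0687000-02, stood at 4120 and 3863 (0.10 ± 0.04). Amino acid transporters had 6 of 62 (9.68%) higher and none lower, and a median of 0.06 that was -0.10 with library totals, where 4 were higher and 1 lower. Os04t0460300-01 had 1053 and 2942 reads (1.67 ± 0.07).

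Aquaporins, the water channels, were level in their most read members. Os04t0559700-01, similar to PIP1.1, had 31682 reads in NT (Hwayoung) and 28013 in nac6 (0.02 ± 0.02). Of 14 tested, 2 were higher and 2 lower. Os06t0228200-01, annotated as a silicon influx transporter of the NIP III class, had 773 and 331 reads (-1.02 ± 0.13), unlike Lsi1 (Os02t0745100-01), with a ratio of 0.02 ± 0.02.

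Kinesins, the motors that run along microtubules and many of which work in dividing cells, were lower in 8 of 44 (18.2%) and higher in 3 (6.82%), with a median of -0.63, with 13 lower under library totals and 5 under a pseudocount of 10. Only 6 of the 44 had a ratio above 0. Os03t0301800-01 had 269 reads in NT (Hwayoung) and 89 in nac6 (-1.38 ± 0.23), and Os01t0513900-01 had 362 and 123 (-1.36 ± 0.20). Os09t0528000-01 was higher at 138 and 382 (1.65 ± 0.19), with 5 reads in NT (Nipponbare). Cell cycle and DNA replication transcripts, a list that includes the kinesins, had 7 of 190 higher and 11 lower, or 6 and 19 with library totals, and a median of -0.21. Histones, which package newly copied DNA, did not share that sign. None of 61 was called, 51 had a ratio above 0, and the median was 0.39. Histone H3 (Os06t0130900-00) had 3340 and 5620 reads (0.95 ± 0.04) and histone H1 (Os03t0799000-01) 2227 and 3636 (0.90 ± 0.05). Ribosomal proteins had 8 of 368 (2.17%) higher and 9 (2.45%) lower, or 5 and 11 with library totals, and a median of 0.18.

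Ethylene synthesis starts from S-adenosylmethionine, which is also the substrate of nicotianamine synthase. Of 18 transcripts of this group, 2 were higher and 1 lower. Os05t0135700-01, S-adenosylmethionine synthetase 1, had 33012 reads in NT (Hwayoung) and 25804 in nac6 (-0.16 ± 0.02). Among the synthases of the ethylene precursor, Os04t0578000-01 had 830 and 1559 reads (1.11 ± 0.08), under 2-fold with library totals, and Os09t0453800-01 had 760 and 373 (-0.83 ± 0.12). Diterpenoid phytoalexins, the antimicrobial compounds of rice, showed little difference in the transcripts most read. Os04t0178300-02, similar to syn-copalyl diphosphate synthase, had 11014 and 10246 reads (0.09 ± 0.03, or -0.06 with library totals), and Os02t0570400-01, similar to ent-kaurene synthase 1A, had 5093 and 4961 (0.16 ± 0.04). Over their list, 2 of 18 were higher and 2 lower.

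Wall-related families differed from each other. Expansins, which loosen walls, had 1 of 39 higher and 1 lower, the lower being Os03t0102700-01, similar to expansin-B7, with 1059 reads in NT (Hwayoung) and 278 in nac6 (-1.73 ± 0.13). Cellulose and xyloglucan transcripts had 5 of 74 (6.76%) higher and 6 (8.11%) lower, or 3 and 9 with library totals, and a median of -0.24. The cellulose synthase with the most reads, Os07t0208500-01, had 12798 and 8367 (-0.42 ± 0.03). Lipid transfer proteins, secreted carriers of lipids, had 3 of 39 (7.69%) higher and 4 (10.3%) lower, or 2 and 5 with library totals. Os07t0287400-01 had 814 and 167 reads (-2.07 ± 0.16), and Os05t0550600-02, similar to lipid transfer protein 2, had 44 and 183 (2.21 ± 0.32).

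Redox enzymes and ion transporters gave single large differences. Glutathione S-transferases, which tag toxic compounds with glutathione, had 4 of 53 (7.55%) higher and none lower. Os03t0785900-01 had 1132 reads in NT (Hwayoung) and 3172 in nac6 (1.68 ± 0.07), and Os10t0530200-01, similar to the TSI-1 enzyme, had 1464 and 3744 (1.55 ± 0.06). Antioxidant enzymes had 5 of 149 (3.36%) higher and 4 (2.68%) lower, or 2 and 7 with library totals. Catalase A (Os02t0115700-01), which breaks down hydrogen peroxide, had 4809 and 1895 reads (-1.15 ± 0.05). Potassium and sodium transport had 3 of 60 (5%) higher and 5 (8.33%) lower. The potassium transporter OsHAK1 (Os04t0401700-01) had 8166 and 6394 reads (-0.16 ± 0.03), and Os11t0660000-01, a sodium/calcium exchanger, had 731 and 240 (-1.40 ± 0.14). Sulfate transcripts had 3 of 28 higher and 2 lower. The sulfate transporters Os08t0406400-01 and Os01t0719300-01 went apart with 386 and 850 reads (1.33 ± 0.12) and 1181 and 453 (-1.18 ± 0.11). Among the 9983 transcripts described as hypothetical or unknown, 853 (8.54%) were higher and 405 (4.06%) lower, or 659 and 607 with library totals.

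**Figure D4:**
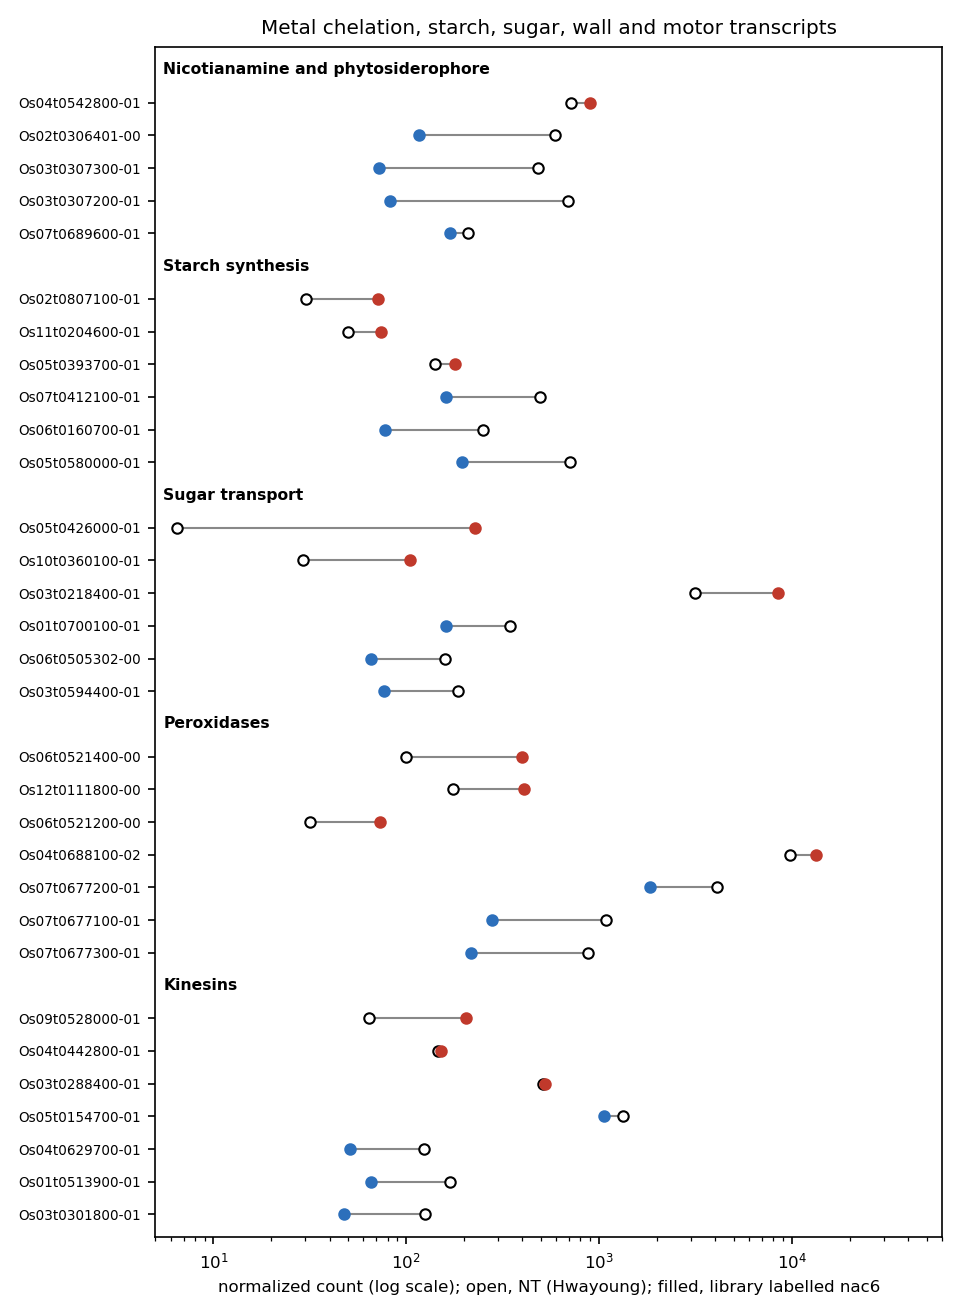
Normalized counts (x axis, log scale) in NT (Hwayoung) (open points) and in the library labelled nac6 (filled points, red where higher and blue where lower) for transcripts of 5 families, those picked by the naming rule and OsNAS3 (Os07t0689600-01). OsNAS1 and OsNAS2 (Os03t0307300-01 and Os03t0307200-01) lie to the left of their control by log2 ratios of -2.71 and -3.06, and Os05t0426000-01 to the right by 4.92.

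Several of the largest graded ratios belonged to single loci outside these families. Os07t0543700-01, similar to a Mov34/MPN/PAD-1 protein, had 6 reads in NT (Hwayoung), 2665 in nac6 and 4274 in NT (Nipponbare), a ratio of 8.55 ± 0.78. The germin-like protein 8-12, Os08t0231400-01, of a family linked to disease resistance on chromosome 8, had 6, 1137 and 2894 reads in that order (7.29 ± 0.78). Of 9 germin-like loci on that chromosome it was the one called. Os11t0540100-01, similar to an Xaa-Pro aminopeptidase, had 54, 910 and 1142 reads (4.22 ± 0.27), and the F-box protein Os07t0158900-01 had 94, 2074 and 3443 (4.62 ± 0.20). In these 4, NT (Nipponbare) stood nearer to nac6 than to NT (Hwayoung). Os07t0664900-00, similar to a short-chain dehydrogenase, had 19, 1014 and 30 reads (5.78 ± 0.44) and did not share that order. Os12t0431300-01, a TolB-like beta-propeller protein, had 282, 2925 and 2515 (3.56 ± 0.12). It belongs to a family of 15 tested transcripts, 4 of them higher and none lower, with a median of 0.48. On the lower side, Os12t0187500-00, a C2 domain protein, had 693, 26 and 167 reads (-4.44 ± 0.38). Os06t0244000-01, similar to an anthranilic acid methyltransferase, which makes a plant volatile, had 3000, 214 and 3573 (-3.60 ± 0.14), and Os02t0828200-01, a TPR-like domain protein, had 708, 65 and 83 (-3.20 ± 0.25).

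That order was counted over all graded transcripts, with reads scaled to library totals. NT (Nipponbare) was nearer to nac6 than to NT (Hwayoung) for 645 of the 1753 higher transcripts (36.8%), for 233 of the 1093 lower ones (21.3%) and for 9052 of the 27706 within 2-fold (32.7%). On chromosomes 8, 11 and 12 the share was 49.5% of 400 higher transcripts, and on the others 33.0% of 1353. For the lower ones these shares were 27.3% and 19.5%.

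Chromosomes 8, 11 and 12, a set chosen after seeing the data, also had larger shares of calls when pooled. Together they had 7.92% of their graded transcripts higher and 5.07% lower, against 5.31% and 3.28% on the others. Chromosome 11 had the highest shares, 8.58% higher and 6.19% lower. Taken singly, the 3 did not all stand apart. Chromosome 9 had 7.12% higher against 7.02% on chromosome 12, and chromosome 8 had 3.64% lower against 4.39% on chromosome 4. When the tested loci of each chromosome were taken 100 at a time in the order of their identifiers, each by its transcript with the most reads, the median of 247 such runs held 6 higher and 3 lower loci, and 20 runs held at least 15 higher. The run from Os08g0233000 to Os08g0275200 had 29 higher and 9 lower, and that from Os04g0321800 to Os04g0379900 had 23 and 8. Of the 20 runs with at least 15 higher loci, 9 lay outside chromosomes 8, 11 and 12, that on chromosome 4 included, so the part of such runs in the family counts was not measured as a whole. With those 3 chromosomes left out, WRKY factors had 16 of 65 higher, DUF26 proteins 7 of 12, and the list of chitinases, glucanases and PR proteins 13 of 122 (27 of 161 with them). Class III chitinases kept 2 of 6 and thaumatin-like proteins 0 of 12. NB-ARC transcripts had 8 higher and 16 lower of 136, and starch synthesis kept all 9 of its lower members among 25.

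**Figure D5:**
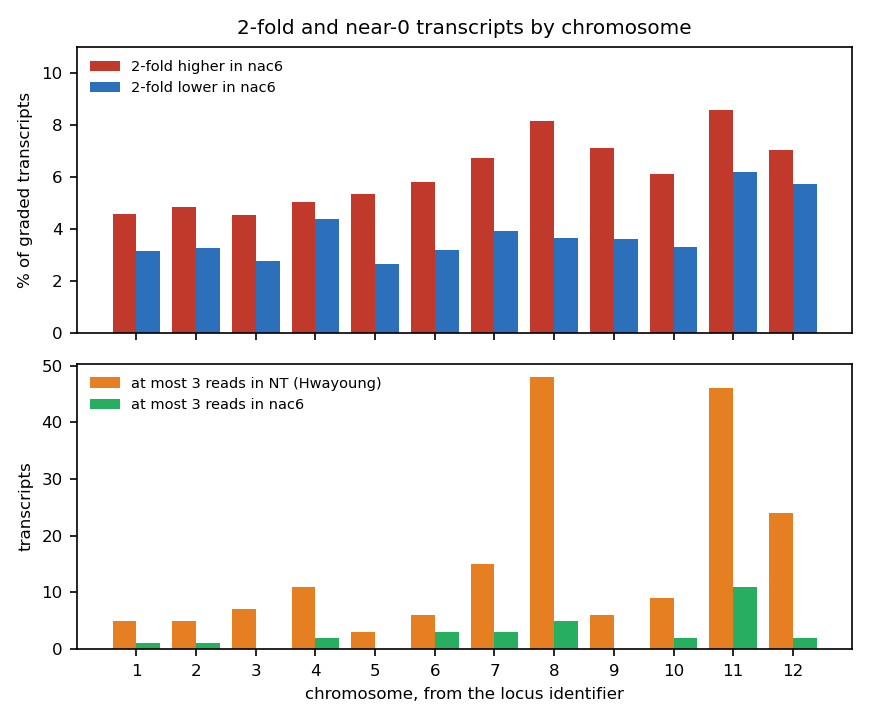
Top, share of graded transcripts on each chromosome (x axis) that were 2-fold higher (red) or lower (blue) in the library labelled nac6. Bottom, number of tested transcripts with at most 3 reads in NT (Hwayoung) (orange) or in nac6 (green). Chromosomes 8, 11 and 12 have 48, 46 and 24 of the transcripts near 0 in NT (Hwayoung), and the other 9 have 67 in all.

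Transcripts near 0 in one library were unevenly divided. In NT (Hwayoung), 185 (0.601%) had at most 3 reads, 136 of them with 0, while in nac6 30 (0.0975%) had, 20 of them with 0. Chromosomes 8, 11 and 12 held 118 of the 185, which is 2.28% of their tested transcripts against 0.262% elsewhere. In nac6 these 185 had from 36 to 3176 reads, with a median of 104. Of them 171 had more than 3 reads in NT (Nipponbare) and 155 at least 30. Of the 30 near 0 in nac6, 25 and 15 met these limits. The shares of all tested transcripts that met them were not counted, so these numbers have no background beside them. NT (Nipponbare) had a read of 38939 of the 40925 transcripts in the series. The function text named a function for 71 of the 185 and for 15 of the 30, against 19773 of all 30767 tested transcripts.

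A library with 0 reads allows up to 3, and folds against it are lower bounds on that floor, for counting error only. Os11t0639600-01, an NB-ARC protein, had 0 reads in NT (Hwayoung) and 910 in nac6, at least 347-fold higher, and 1224 in NT (Nipponbare). Os11t0694100-01, similar to a protein kinase, had 0 and 422 (at least 161-fold higher) and 2238 in NT (Nipponbare). Os10t0315400-01, similar to SKIP interacting protein 28, had 0 and 568 (at least 218-fold higher). Os07t0218700-01, a cytochrome P450, had 0 and 741 (at least 283-fold higher) but 12 in NT (Nipponbare). With 1 read in NT (Hwayoung) and 446 in nac6, Os03t0379500-01, similar to the ribosomal protein S9, had a ratio of 498 with a 95% counting interval from 91.2 to 20224. This interval and the floor of 3 treat reads as independent, so both are narrower than the errors used elsewhere.

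In the other direction, Os10t0141200-00, similar to a protein kinase, had 476 reads in NT (Hwayoung), 0 in nac6 (at least 139-fold lower) and 6 in NT (Nipponbare). Os04t0370500-00 had 238 and 0 (at least 69.5-fold lower). The cytochrome P450 Os06t0204100-00 had 362 reads and 1, and Os11t0444000-01, similar to the UDP-glucosyltransferase BX8, had 135 and 2. NB-ARC and disease resistance transcripts made up 9 of the 185 and 3 of the 30, against 268 of all 30767 tested transcripts. Why these loci had so few reads in one library was not tested.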

How the data were processed

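RNA-seq of roots was carried out on 1 strand-specific library a group. The authors' table of the pair, in the format of DESeq, gives each transcript's signal, a mean normalized count. Each value averages 2 columns of counts scaled by separate size factors, and whole reads were recovered from the deposited signal for 100% of values. The columns may be mates of read pairs, and counting errors carry their mean chi-square of 1.76. The build was IRGSP-1.0 per the submitters' processing notes, and the aligner was not given in the sources used here. The deposited fold changes and p-values are the authors' own comparison and were not used. NT (Nipponbare) reads came from another table. Log2((nac6 + 1)/(NT + 1)) was computed where the pair averaged 10 or more, in Python 3.11.15 with pandas 2.3.3, and scripts were tested on simulated data. No test across transcripts was run.

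Function families were defined by words in the deposited descriptions, and may overlap. The members and lists were chosen with earlier results of these data known, patterns were corrected after values were seen, and 9 families (DUF26, starch synthesis, SAUR, EL5, PR-1, thaumatin-like, class III chitinases, kinesins and TolB) were added then. Transcripts named are, by rule, a family's most read member and the 3 furthest graded ones in each direction with a mean of at least 50, the 15 highest, 15 lowest and 10 most read of the comparison with a mean of at least 100, the 8 near 0 in each direction with the most reads, and OsNAC6, OsNAS and reference genes. The rule also listed RCc3 and the qRT-PCR reference UBIQUITIN 1, whose values are not given here. Chromosomes were read from locus identifiers. Alternatives were other filters, pseudocounts, scalings and thresholds, and 1 transcript a locus.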

Additional observations from a re-analysis of the deposited data

How the results depend on the processing

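With no filter on low values, 3640 transcripts were higher and 2262 lower in nac6. A mean of at least 50 left 1115 and 467, of which 1060 and 454 were graded, and 55 and 13 near 0 in NT (Hwayoung) and in nac6. With a pseudocount of 10, 569 were lower, 539 of them graded. Library totals gave 1450 higher and 1680 lower, 1650 of the latter graded. At 4-fold, 505 were higher and 111 lower, 320 and 81 of them graded. A near-0 limit of 10 reads gave 284 in NT (Hwayoung) and 99 in nac6. Without chromosomes 8, 11 and 12, an alternative chosen after seeing the data, these were 67 and 12. Centring on the median and 1 transcript a locus kept every count of the comparison within 1.5 times. Of 118 transcripts called and named in the report, 6 lost the call under another pseudocount or scaling and none changed sign. Among 55 families described, 21 had a median whose sign changed under a setting. No paired analysis was possible because each group had 1 library. Depth limits transcripts with a mean under 50, whose typical standard error was 0.40, and no alternative stands in for the missing replicates.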
